A study of Homo sapiens with 3 samples.

Results

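The genes of cholesterol and fatty acid synthesis described here number 29 of the 19220 genes counted by RNA-seq in CAL27 cells, a line from an oral squamous cell carcinoma of the tongue, and in derivatives of these cells kept in a drug. They were chosen by name as the enzymes that build cholesterol (16 genes), the enzymes that make, elongate, desaturate or activate fatty acids (9 genes) and the regulators of both routes (4 genes). This choice, and that of all further lists below, was made with earlier results of these data known. The libraries came from CAL27 cells grown without drug, from CAL27/5FU and from CAL27/OXA. The 5FU-resistant line CAL27/5FU was kept in 10 μM 5FU (fluorouracil, which blocks thymidylate synthesis). CAL27/OXA was kept in 10 μM OXA (oxaliplatin, a platinum drug that binds DNA). All 3 lines were grown in DMEM with high glucose and FBS, and serum supplies cells with cholesterol and fatty acids. The CAL27/5FU cells had been made by raising the 5FU concentration over many months, and how CAL27/OXA cells were made is not given in the sources used here. Whether a line is a clone is not given either. As each drug was present only in its own line, the presence of a drug, the selection by it and the time in culture cannot be told apart. In such bulk libraries, fewer cells of a type and less RNA per cell cannot be told apart.

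Cells build cholesterol from acetyl-CoA through mevalonate, isoprenoid pyrophosphates, squalene and lanosterol. Fatty acids start from the same acetyl-CoA, which is carboxylated to malonyl-CoA and built up to palmitate, then elongated, desaturated and activated for use in lipids. The genes of both routes are classical targets of the sterol regulatory element-binding proteins (SREBPs), membrane-bound transcription factors that SCAP carries from the endoplasmic reticulum to the Golgi when sterols are low and that INSIG proteins hold back when sterols are high. SREBP-2, encoded by SREBF2, acts mainly on cholesterol genes, and SREBP-1, encoded by SREBF1, mainly on fatty acid genes.

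Of each line, 1 library was used, and the differences below therefore stand without replicates and without p-values. The libraries held from 37297713 to 43455488 counts. Ratios are given on the log2 scale after TMM scaling, which evens out differences in RNA composition, with exact 95% intervals that cover counting error only, and a gene past 2-fold was counted as higher or lower. Both ratios over CAL27 share the CAL27 library, so a feature of that library alone cannot be told apart from a difference of both derivatives. The epithelial and squamous markers were expressed in every library: CDH1 had from 13459 to 15076 counts and EPCAM from 9428 to 12457. The other 5 markers of that list differed in their direction. KRT5 had 286124, 46083 and 72716 counts and KRT14 58222, 948 and 8423 in CAL27, CAL27/5FU and CAL27/OXA, both lowest in CAL27/5FU. KRT8 had 31681, 49766 and 28662 counts and KRT18 21815, 31868 and 29852, both highest in CAL27/5FU, and TP63 had 23645, 9759 and 29498. The summed FPKM (the deposited level per gene length and library size) of all 7 markers was 4.94e+03, 2.2e+03 and 2.06e+03 in the same order. Of the defining markers of other cells, COL3A1 of fibroblasts was at 0 in all 3 libraries and PTPRC of leukocytes had at most 2 counts. Other fibroblast markers had counts, with 1387, 1068 and 1050 for COL1A1, 90, 300 and 212 for COL1A2 and 120, 414 and 877 for LUM, and the 5 fibroblast markers summed to 7.37, 11.6 and 14.6 FPKM. Of the pair of endothelial markers, PECAM1 had from 6 to 13 counts and CDH5 had 43, 338 and 163, and the pair summed to 0.318, 2.22 and 0.962 FPKM. The part of these markers in the results that follow was not tested.

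Most cholesterol enzymes were lower in both derivatives, and most fatty acid genes lay within 2-fold of CAL27. Of the 16 cholesterol enzymes, 15 were past 2-fold lower in CAL27/5FU and 11 in CAL27/OXA, and of the 9 fatty acid genes, 1 and 2 were. With a threshold of 1.5-fold, 15 cholesterol enzymes were lower in each derivative, and 3 and 6 of the fatty acid genes. The shares of all genes tested past 1.5-fold lower were 14% and 17%. In CAL27/OXA, ACLY (-0.99) and ACACA (-0.98) lay just within 2-fold. In CAL27/5FU, 18 of all 29 genes were past 2-fold lower than in CAL27 and 0 were past 2-fold higher, beside 6.72% lower and 8.46% higher of the 13676 genes tested. In CAL27/OXA, 15 were lower and 0 higher, beside 9.28% lower and 6.54% higher of all genes tested. As the 29 genes were chosen with earlier results of these data known, these counts describe the list and do not test it. The median log2 ratio of the 29 genes was -1.14 in CAL27/5FU and -1.03 in CAL27/OXA, against -0.0035 and 0.0055 over all genes tested. All 29 passed the filter on low counts, and the lowest count of any of them in any library was 339. With scaling by total counts, the median over all tested genes became 0.17 and 0.14, with 5.11% lower and 10.5% higher in CAL27/5FU and 7.69% lower and 8.04% higher in CAL27/OXA. On that scale 14 of the 29 were lower in CAL27/5FU and 12 in CAL27/OXA.

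Since abundant genes pass 2-fold less often, the genes were also set beside the 7432 tested genes that averaged 1000 counts or more, a choice made after seeing the data. Of these, 3.61% were lower in CAL27/5FU and 4.83% in CAL27/OXA. Together the 29 genes took 0.878% of all counts in CAL27 against 0.39% in CAL27/5FU and 0.338% in CAL27/OXA. Cholesterol enzymes took 0.359%, 0.131% and 0.163% of the counts in the same order, so their share was lowest in CAL27/5FU. Fatty acid genes took 0.407%, 0.197% and 0.121%, with the lowest share in CAL27/OXA.

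**Figure D1:**
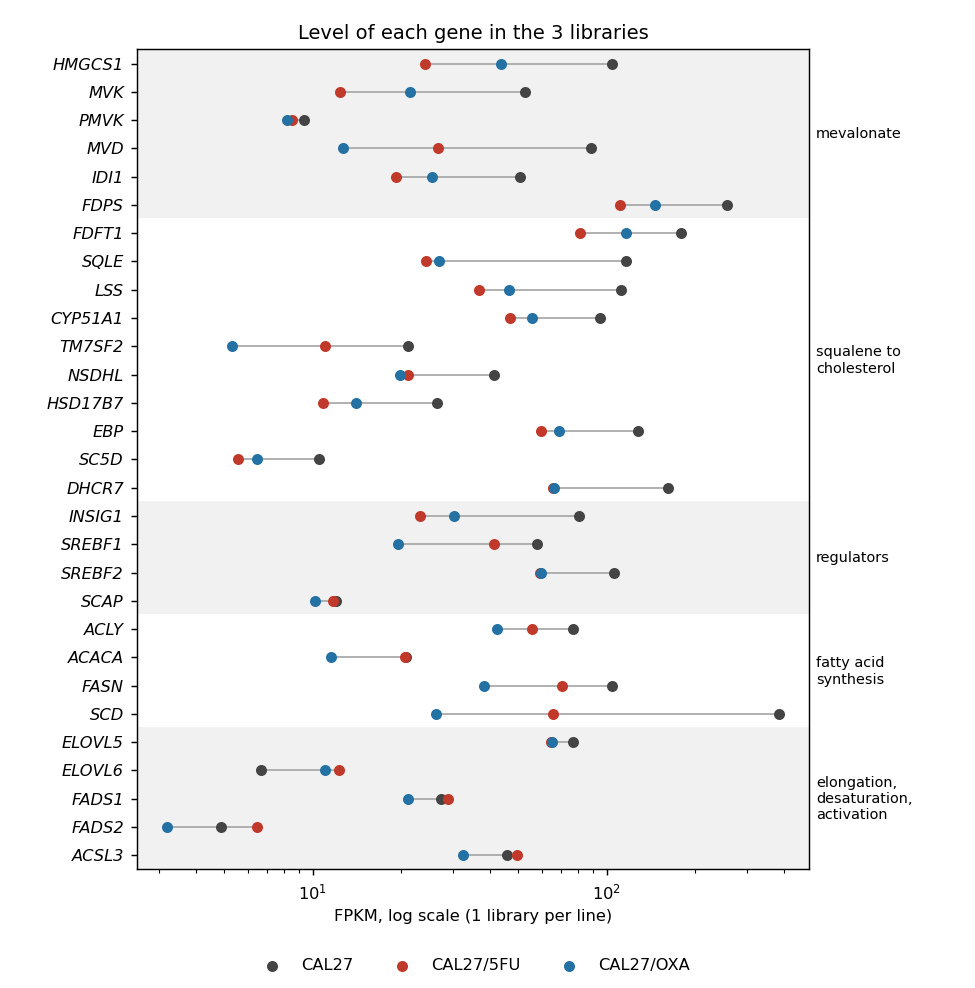
Level of each of the 29 genes as deposited FPKM (log axis), with 1 point per library and the genes grouped by role. SCD spans the widest range, from 384 in CAL27 to 26.2 in CAL27/OXA, and ELOVL6 is the gene whose CAL27 point, at 6.64, lies below both derivatives, at 12.3 and 11.0.

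**Figure D2:**
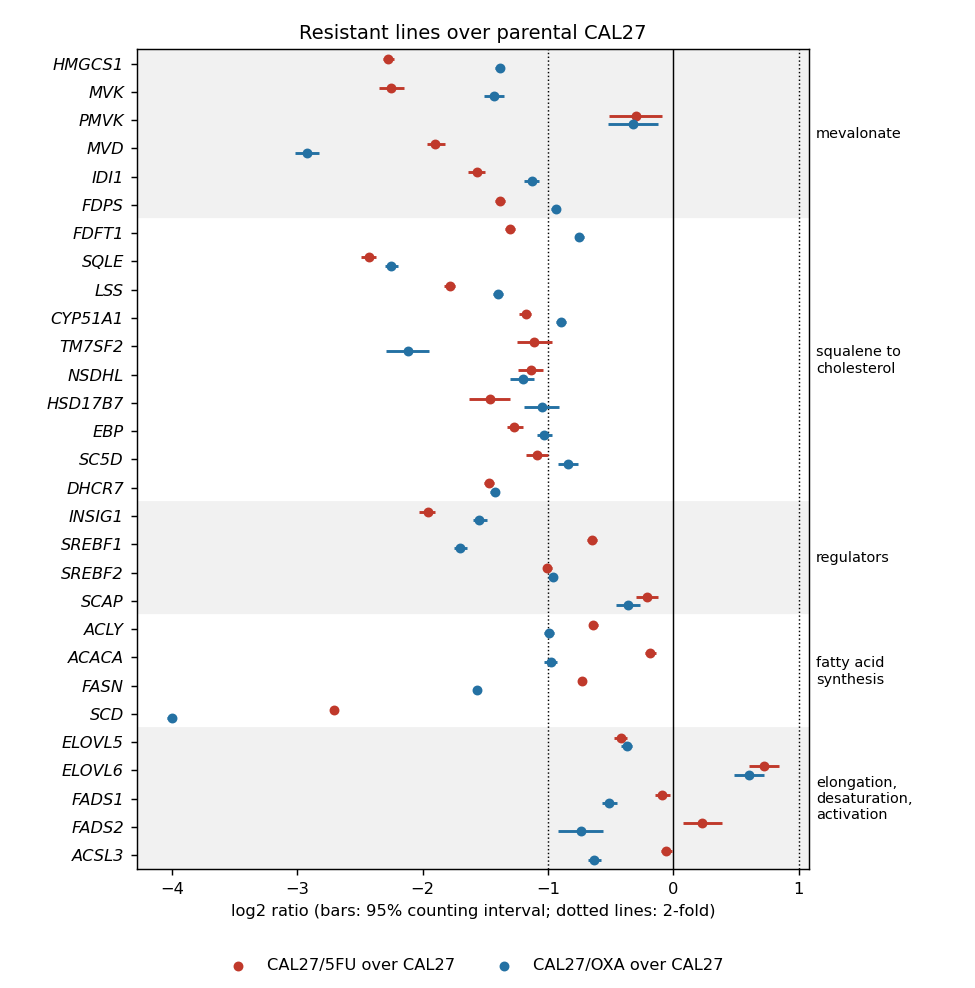
Log2 ratio of each gene over CAL27 in either derivative, both over the same CAL27 library, with 95% counting intervals as bars and dotted lines at 2-fold. The cholesterol enzymes other than PMVK lie between -0.75 and -2.92, SCD reaches -4.00, and ELOVL6 lies at 0.72 and 0.60.

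Because the genes share known regulators, their promoters were read for the letters of 4 binding motifs. RefSeq (GRCh38.p14) gave windows of 300 bases, from 250 before to 50 after a start site, for 26 of the 29 genes. SQLE, FDFT1 and FASN had no window. CCAAT, bound by NF-Y, was found on either strand in 20 of these 26 (76.9%), beside 43% of the 10648 tested genes with a window. GGGCGG, bound by SP1, was found in 24 of 26 (92.3%) beside 75.6%, and the E-box CACGTG in 5 of 26 (19.2%) beside 12.4%. The sterol regulatory element, searched as TCACNCCAC, had 1 match, in SREBF2 (3.85%), beside 1.44% of the tested genes, and its form TCACGCCAC had 0, beside 0.244%. A gene with several windows was counted once if any of them held the letters. Over all windows in the table, which include many genes not tested, the shares were 34.6% for CCAAT, 45% for GGGCGG, 7.26% for CACGTG and 1.13% for TCACNCCAC. A match is a description of these letters and not a bound site. A gene without a match may still hold the element, since other forms of it and bases outside the windows were not searched.

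The 200 bases before the start site are shown for 5 genes past 2-fold lower in CAL27/5FU and for ELOVL6, above its CAL27 level in both derivatives. HMGCS1, LSS, INSIG1 and SCD were chosen for the lowest ratio in CAL27/5FU among the genes with a window in their group by role. SREBF2 was chosen for its match to TCACNCCAC, and ELOVL6 for the highest ratio in CAL27/5FU. All 5 lower genes hold CCAAT in the stretch shown. Of HMGCS1, which has 2 windows, the first is shown. Start sites are those of RefSeq, and GENCODE 29 starts each of these genes further upstream, so that 26 to 200 of the 200 bases lie within the gene as GENCODE 29 draws it. The sequences run 5′ to 3′ on the gene's strand, and capitals mark every match to the motifs, which in reverse read ATTGG for CCAAT and CCGCCC for GGGCGG.
HMGCS1, chr5:43313413-43313612, minus strand: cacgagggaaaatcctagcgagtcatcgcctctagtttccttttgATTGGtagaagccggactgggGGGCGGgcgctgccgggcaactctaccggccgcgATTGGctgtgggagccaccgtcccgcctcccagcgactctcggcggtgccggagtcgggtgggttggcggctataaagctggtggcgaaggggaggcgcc
LSS, chr21:46228775-46228974, minus strand: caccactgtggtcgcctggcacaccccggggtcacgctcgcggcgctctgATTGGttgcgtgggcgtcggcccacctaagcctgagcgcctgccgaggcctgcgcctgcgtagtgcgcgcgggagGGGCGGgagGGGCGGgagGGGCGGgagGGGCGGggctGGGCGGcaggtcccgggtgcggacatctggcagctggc
INSIG1, chr7:155297678-155297877, plus strand: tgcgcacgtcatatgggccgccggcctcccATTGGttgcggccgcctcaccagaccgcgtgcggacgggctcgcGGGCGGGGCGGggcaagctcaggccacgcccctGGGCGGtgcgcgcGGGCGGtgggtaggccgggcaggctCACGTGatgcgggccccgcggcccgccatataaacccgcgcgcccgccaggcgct
SCD, chr10:100347033-100347232, plus strand: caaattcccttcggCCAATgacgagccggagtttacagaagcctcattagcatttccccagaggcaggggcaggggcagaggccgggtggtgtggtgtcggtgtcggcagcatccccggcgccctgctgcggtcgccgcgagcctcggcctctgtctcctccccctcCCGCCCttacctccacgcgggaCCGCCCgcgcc
SREBF2, chr22:41832905-41833104, plus strand: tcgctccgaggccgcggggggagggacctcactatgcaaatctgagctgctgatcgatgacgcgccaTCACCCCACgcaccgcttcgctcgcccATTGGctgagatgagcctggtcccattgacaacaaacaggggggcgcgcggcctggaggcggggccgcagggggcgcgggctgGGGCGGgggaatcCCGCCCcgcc
ELOVL6, chr4:110198616-110198815, minus strand: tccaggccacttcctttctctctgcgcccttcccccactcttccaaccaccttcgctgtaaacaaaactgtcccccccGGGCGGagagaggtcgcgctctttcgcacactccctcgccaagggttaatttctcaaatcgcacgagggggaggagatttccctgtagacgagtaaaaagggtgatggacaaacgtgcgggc
In SREBF2 the stretch TCACCCCAC lies upstream of an inverted CCAAT. INSIG1 carries an E-box close to its start site, LSS carries a run of GGGCGG, and HMGCS1 holds CCAAT in inverted form at both of its matches. ELOVL6 has GGGCGG and no CCAAT in the stretch shown. Among genes within 2-fold in CAL27/5FU, ACLY, ACACA, ELOVL5, FADS2 and ACSL3 also have CCAAT in a window. PMVK, SREBF1, SCAP, ELOVL6 and FADS1, also within 2-fold, have none. Of the genes past 2-fold lower there that have a window, CYP51A1 (-1.18) alone has none. A link between CCAAT and the ratios was not tested.

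Among the 6 genes of the mevalonate steps, 5 were past 2-fold lower in CAL27/5FU and 4 in CAL27/OXA, with medians of -1.73 and -1.25. HMGCS1, which makes HMG-CoA at the entry to the route (minus strand of chromosome 5, 43289395 to 43313512, GENCODE 29 on GRCh38), had 23478 counts in CAL27 against 4868 in CAL27/5FU and 10262 in CAL27/OXA. CAL27/OXA lay between the other libraries, and the log2 ratios over CAL27 were -2.28 (-2.32 to -2.23) and -1.38 (-1.42 to -1.35). MVK, the kinase of mevalonate, had 4445, 939 and 1879 counts, with ratios of -2.25 and -1.43. PMVK, the kinase of the following step, had 416, 339 and 380 counts and was the gene of the mevalonate list with the smallest ratios, at -0.30 (-0.51 to -0.09) and -0.32 (-0.52 to -0.12).

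MVD, which decarboxylates mevalonate pyrophosphate to isopentenyl pyrophosphate, stood out by its order of libraries. It had 6846 counts in CAL27 against 1846 in CAL27/5FU and 1027 in CAL27/OXA, so that it was lowest in CAL27/OXA. Its ratios were -1.90 (-1.97 to -1.82) in CAL27/5FU and -2.92 (-3.02 to -2.83) in CAL27/OXA, the latter 7.59-fold lower. IDI1, the isomerase of isopentenyl pyrophosphate, had 6335, 2143 and 3308 counts, with ratios of -1.57 and -1.13. FDPS, which joins these units to farnesyl pyrophosphate, had 14772, 5706 and 8758 counts, with ratios of -1.38 and -0.94, the second within 2-fold. At 256 FPKM in CAL27 against 111 in CAL27/5FU and 146 in CAL27/OXA, FDPS had the highest level per length of the 29 genes in both derivatives.

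All 10 genes from squalene to cholesterol were past 2-fold lower in CAL27/5FU, and 7 of them in CAL27/OXA, with medians of -1.28 and -1.12. SQLE, the squalene epoxidase and a slow step of the route, had 14524 counts in CAL27 against 2713 in CAL27/5FU and 3479 in CAL27/OXA. Both derivatives were far below CAL27, by 5.38-fold and 4.76-fold, with ratios of -2.43 (-2.49 to -2.37) and -2.25 (-2.30 to -2.20). FDFT1, the squalene synthase just before it, had 16599, 6773 and 11284 counts, with ratios of -1.30 and -0.75. LSS, which closes the sterol rings to lanosterol, had 18221, 5325 and 7860 counts, with ratios of -1.78 and -1.40.

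The later enzymes work on the ring system of lanosterol. CYP51A1, its demethylase, had 12120, 5363 and 7401 counts in CAL27, CAL27/5FU and CAL27/OXA, with ratios of -1.18 and -0.90. NSDHL and HSD17B7, which act in the removal of further methyl groups, had ratios of -1.14 and -1.46 in CAL27/5FU and -1.20 and -1.05 in CAL27/OXA. Counts ran from 2765 to 1260 and 1370 for NSDHL, and from 1122 to 409 and 618 for HSD17B7. EBP, a sterol isomerase, had 6193, 2584 and 3455 counts and ratios of -1.27 and -1.03. SC5D, a sterol desaturase, had 3063, 1443 and 1953 counts and ratios of -1.09 and -0.84. DHCR7, a reductase that completes cholesterol, had 17888, 6501 and 7599 counts, and its ratios of -1.47 and -1.42 were close to each other.

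TM7SF2, a sterol reductase, was like MVD lowest in CAL27/OXA. It had 1374 counts in CAL27 against 640 in CAL27/5FU and 360 in CAL27/OXA, with ratios of -1.11 (-1.25 to -0.97) and -2.12 (-2.29 to -1.95). TM7SF2 overlaps VPS51 on the same strand, which had 6923, 5301 and 5393 counts and ratios of -0.39 and -0.55. MVK likewise overlaps MMAB on the other strand, with 2557, 1118 and 1213 counts and ratios of -1.20 and -1.26. How reads of overlapping genes were counted, and whether by strand, is not given in the sources used here. The same holds for reads shared between FDPS or HSD17B7 and their pseudogenes.

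The regulators differed among themselves. INSIG1, which holds SREBPs back and is itself an SREBP target (plus strand of chromosome 7, 155297776 to 155310235), had 9897 counts in CAL27 against 2549 in CAL27/5FU and 3862 in CAL27/OXA. It was 3.90-fold and 2.92-fold lower, with ratios of -1.96 (-2.03 to -1.90) and -1.55 (-1.60 to -1.49). SREBF2 had 23290, 11659 and 13668 counts, with ratios of -1.01 (-1.04 to -0.97) and -0.96 (-0.99 to -0.93), just to either side of 2-fold. SCAP, the escort of both SREBPs, had 2022, 1756 and 1792 counts, with ratios of -0.21 and -0.36. SREBF1 (minus strand of chromosome 17, 17810399 to 17837002) had 11221 counts in CAL27 against 7177 in CAL27/5FU and 3936 in CAL27/OXA. Its ratio was -0.65 (-0.69 to -0.61) in CAL27/5FU and -1.70 (-1.75 to -1.65) in CAL27/OXA. SREBF1 overlaps RAI1 on the other strand, which had 6850, 5099 and 4210 counts and ratios of -0.43 and -0.89.

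Of the 4 genes of fatty acid synthesis, 1 was past 2-fold lower in CAL27/5FU and 2 in CAL27/OXA, with medians of -0.68 and -1.28. SCD, the desaturase that turns saturated into monounsaturated fatty acids (plus strand of chromosome 10, 100347124 to 100364834), had 87692 counts in CAL27 against 13420 in CAL27/5FU and 6232 in CAL27/OXA. All 3 libraries were far apart, and SCD was 6.56-fold lower in CAL27/5FU and 16.0-fold lower in CAL27/OXA, with ratios of -2.71 (-2.74 to -2.69) and -4.00 (-4.04 to -3.97). Counted from the lowest ratio, this placed SCD at rank 161 and rank 81 of the 13676 genes tested. In CAL27 it had the highest level per length of the 29 genes, at 384 FPKM, and at 65.8 and 26.2 FPKM it ranked 4 in CAL27/5FU and 15 in CAL27/OXA. SCD alone took 0.21% of all counts in CAL27 against 0.036% in CAL27/5FU and 0.0143% in CAL27/OXA.

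FASN, the synthase that builds palmitate (minus strand of chromosome 17, 82078333 to 82098332), had 36679, 22275 and 14080 counts in CAL27, CAL27/5FU and CAL27/OXA. Its ratio was -0.73 (-0.75 to -0.70) in CAL27/5FU, within 2-fold, and -1.57 (-1.60 to -1.54) in CAL27/OXA. ACACA, which makes the malonyl-CoA that FASN uses, had 8607, 7591 and 4972 counts and ratios of -0.19 (-0.23 to -0.14) and -0.98 (-1.03 to -0.93). ACLY, which supplies acetyl-CoA from citrate to both routes, had 13940, 9014 and 7978 counts and ratios of -0.64 and -0.99. All 4 genes were lowest in CAL27/OXA.

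None of the 5 genes of elongation, further desaturation and activation passed 2-fold, with 0 higher and 0 lower in either derivative and medians of -0.06 and -0.51. The sign of the first median depends on the scale, since it was 0.11 with total counts. ELOVL6, which elongates palmitate (minus strand of chromosome 4, 110045846 to 110199199), had 913 counts in CAL27 against 1509 in CAL27/5FU and 1575 in CAL27/OXA. It was 1.64-fold and 1.51-fold above CAL27, with ratios of 0.72 (0.60 to 0.84) and 0.60 (0.48 to 0.72). ELOVL6 was the only one of the 29 genes past 1.5-fold higher than CAL27 in either derivative. Of all genes tested, 15.2% were past 1.5-fold higher in CAL27/5FU and 14.1% in CAL27/OXA. ELOVL5, which elongates polyunsaturated fatty acids, had 8365, 6273 and 7365 counts and ratios of -0.42 and -0.37.

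FADS1 and FADS2, desaturases of polyunsaturated fatty acids, overlap on opposite strands of chromosome 11. FADS1 had 5039, 4759 and 4040 counts in CAL27, CAL27/5FU and CAL27/OXA, with ratios of -0.09 (-0.15 to -0.03) and -0.51 (-0.57 to -0.45). FADS2 had 641, 758 and 437 counts, with ratios of 0.23 (0.08 to 0.39) and -0.74 (-0.92 to -0.56). FEN1, which also overlaps FADS2, had 3875, 3635 and 6179 counts. ACSL3, which activates fatty acids at lipid droplets, had 8252, 7960 and 6073 counts, with ratios of -0.06 (-0.10 to -0.01) and -0.63 (-0.68 to -0.58). In CAL27/5FU the signs of FADS1 and ACSL3 turned with total counts, to 0.08 and 0.11.

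Between the derivatives, most cholesterol enzymes had ratios above 0 and most fatty acid genes below 0, few of them past 2-fold. In CAL27/OXA over CAL27/5FU, 4 of the 29 genes were past 2-fold lower (MVD, TM7SF2, SREBF1 and SCD) and 0 higher, beside 8.38% lower and 4.18% higher of all genes tested, and the median was 0.04. Of the 16 cholesterol enzymes, 12 had a ratio above 0 (11 with the whole interval) and 4 below, with a median of 0.27. Of the 9 fatty acid genes, 8 had a ratio below 0 and 1 above, each with the whole interval, with a median of -0.57. Over all genes tested, 6957 ratios were above 0 and 6719 below, with whole intervals for 4973 and 4860. HMGCS1 at 0.89 (0.84 to 0.94), MVK at 0.82 (0.70 to 0.93) and FDFT1 at 0.55 (0.51 to 0.60) were at the upper end.

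At the lower end of this comparison were SCD at -1.29 (-1.33 to -1.25), SREBF1 at -1.05 (-1.11 to -0.99), MVD at -1.03 (-1.14 to -0.92) and TM7SF2 at -1.01 (-1.20 to -0.82). SCD was the only gene of the 29 whose whole interval lay past 2-fold here. FADS2 at -0.97, FASN at -0.84, ACACA at -0.79 and ACSL3 at -0.57 followed within 2-fold. The intervals of PMVK (-0.23 to 0.20), NSDHL (-0.17 to 0.05) and DHCR7 (-0.01 to 0.09) included 0, so that no difference between the derivatives was detectable for them at this depth.

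**Figure D3:**
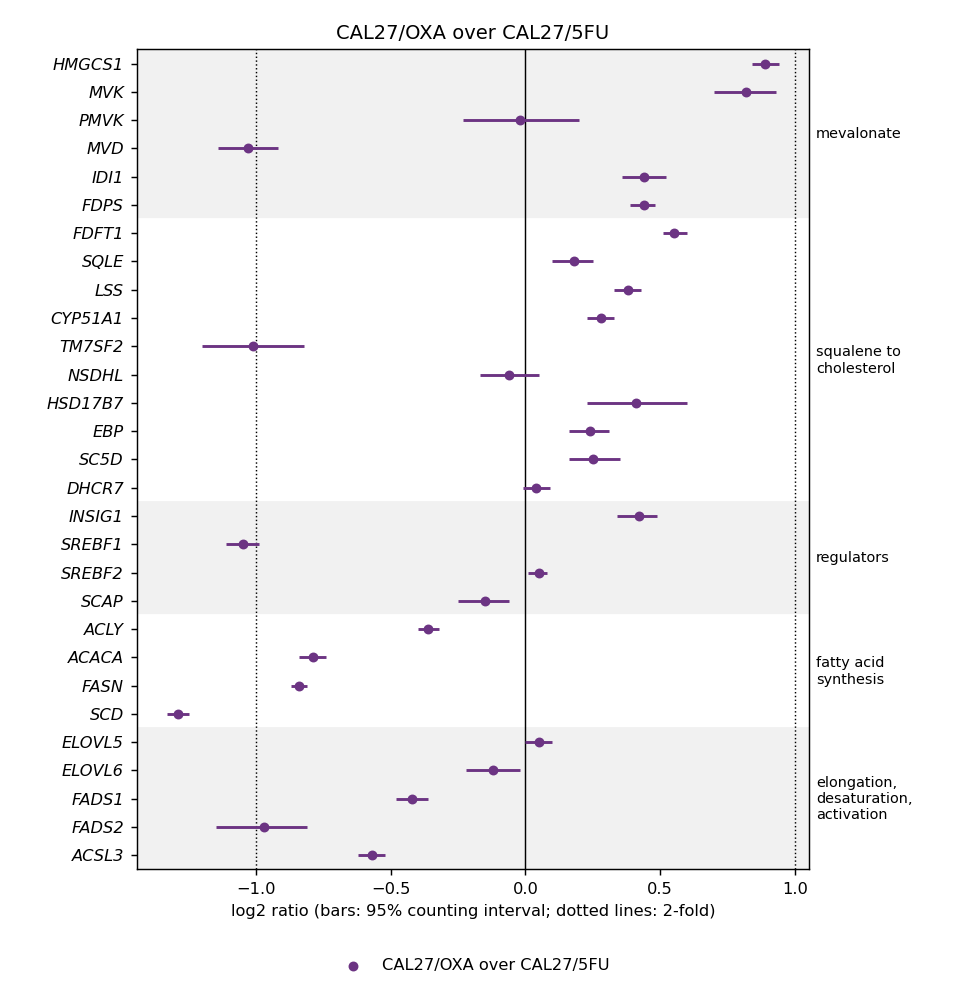
Log2 ratio of each gene in CAL27/OXA over CAL27/5FU, with 95% counting intervals as bars, dotted lines at 2-fold and the genes grouped by role. Most cholesterol enzymes lie to the right of 0, with MVD at -1.03 and TM7SF2 at -1.01, and the fatty acid genes other than ELOVL5 lie to the left, down to -1.29 for SCD.

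Genes that lie next to each other may change together, so each gene past 2-fold was set beside the 5 nearest tested genes on each side. The genes are past 2-fold by this choice, so only the neighbours are described. For the 18 such genes in CAL27/5FU, the median of the 10 neighbours ran from -1.01 to 0.45, and for the 15 in CAL27/OXA from -1.06 to 0.48, with medians of -0.06 and -0.07. SQLE differed from most, since its neighbours had medians of -1.01 and -0.94 and 5 of the 10 were past 2-fold lower in each derivative. MVD had neighbours with a median of 0.03 in CAL27/5FU and of -1.06 in CAL27/OXA, where 5 of the 10 were lower, and CAL27/OXA was also the library in which MVD was lowest. The neighbours of SCD had medians of -0.09 and 0.21, and those of HMGCS1 0.36 and 0.48. FDFT1, lower in CAL27/5FU, lay among neighbours with a median of 0.45, of which 4 were past 2-fold higher. The part of the neighbourhood in the ratios of SQLE and MVD was not tested.

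**Figure D4:**
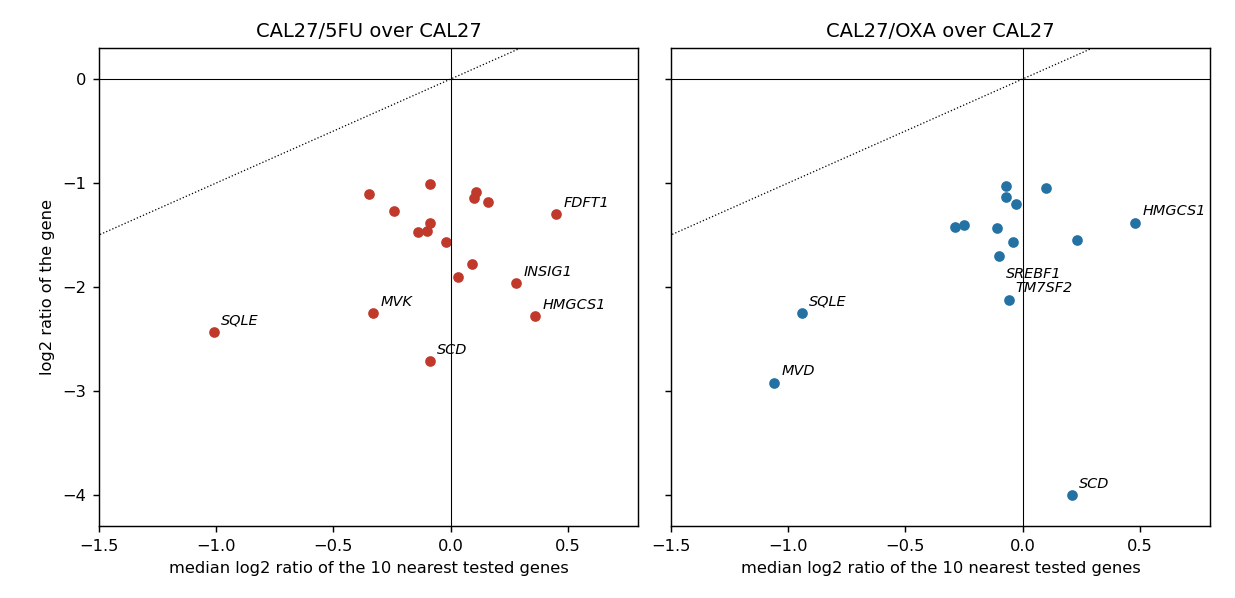
Log2 ratio over CAL27 of each gene past 2-fold lower (vertical axis) against the median log2 ratio of its 10 nearest tested genes (horizontal axis), for CAL27/5FU on the left and CAL27/OXA on the right, with a dotted line where both are equal. The genes were chosen as past 2-fold, and what the plot adds is the horizontal position, which is within 0.5 of 0 for all but SQLE in both derivatives and MVD in CAL27/OXA. The neighbours of SQLE lie at -1.01 and -0.94 and those of MVD in CAL27/OXA at -1.06.

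Other genes of lipid metabolism were taken as 7 further lists, to be read beside the 6.72% lower and 8.46% higher of all tested genes in CAL27/5FU and the 9.28% and 6.54% in CAL27/OXA. The counts of lower genes in the lists of other elongases and of fatty acid uptake and oxidation lie near those shares. Of 6 other genes of sterol synthesis, 3 were lower in each derivative, with medians of -1.07 and -0.85. MSMO1, a methyl sterol oxidase, had 10028, 2712 and 5316 counts and ratios of -1.89 and -1.10. ACAT2, which makes acetoacetyl-CoA, had 6076, 2492 and 4351 counts and ratios of -1.29 and -0.67, and C14orf1 (also named ERG28), a scaffold of sterol demethylation, had -1.22 and -1.11. INSIG2, a homologue of INSIG1, had 2783, 1467 and 1549 counts and ratios of -0.93 and -1.03.

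Of 9 genes of SREBP processing and turnover, 0 were lower in CAL27/5FU and 2 in CAL27/OXA, with 0 higher and medians of -0.07 and -0.01. MBTPS1, the protease that makes the initial cut in SREBPs, had 6627, 6336 and 3282 counts and ratios of -0.07 and -1.20. RNF139, a ubiquitin ligase and a neighbour of SQLE, had 1381, 695 and 781 counts, with ratios that were much alike in both derivatives, just within 2-fold in CAL27/5FU (-1.13 to -0.86) and just past it in CAL27/OXA (-1.14 to -0.88). Among 14 genes of sterol transport, storage and efflux, 2 were lower and 2 higher in CAL27/5FU, and 3 lower and 0 higher in CAL27/OXA. STARD4, a sterol carrier, had ratios of -1.20 and -0.60, SCARB1, a lipoprotein receptor, -0.76 and -1.46, and MYLIP, a ligase that degrades lipoprotein receptors, -1.17 and -2.43. The genes of efflux ABCA1 and ABCG1, which averaged under 100 counts and are named after their values were seen, were the 2 higher ones in CAL27/5FU. ABCA1 had 29, 195 and 64 counts and ratios of 2.66 (2.17 to 3.36) and 0.91 (0.30 to 1.64). ABCG1 had 11, 41 and 5 counts and ratios of 1.73 and -1.04, the latter with an interval that includes 0 (-3.20 to 0.32). The medians of this list were -0.11 and -0.29.

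In the list of fatty acid supply and regulation, 12 of 13 genes were tested, with 2 lower and 1 higher in CAL27/5FU and 3 lower and 0 higher in CAL27/OXA. ACSS2, which makes acetyl-CoA from acetate, had 8697 counts in CAL27 against 1903 in CAL27/5FU and 2594 in CAL27/OXA, with ratios of -2.20 and -1.93. ACACB, the mitochondrial homologue of ACACA and a neighbour of MVK, had 374, 125 and 171 counts and ratios of -1.57 and -1.31. Also named after their values were seen, PPARG, a receptor that drives lipid storage, had 45, 194 and 54 counts and ratios of 2.06 and 0.07, and MLXIPL, a glucose-responsive factor, had 85, 85 and 30 counts and ratios of -0.01 and -1.62. The medians of the list were -0.01 and -0.20. Among the other elongases, desaturases and acyl-CoA synthetases, of which 16 of 18 were tested, 1 was higher and 1 lower in each derivative, with medians of 0.03 and 0.24. HACD2, a dehydratase of the elongation cycle, had ratios of -1.47 and -0.59, and ACSL1, an acyl-CoA synthetase, -0.63 and -1.48. The gene past 2-fold higher was ELOVL3, named after its values were seen, with 11, 66 and 46 counts and ratios of 2.39 and 1.71.

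Fatty acid uptake and oxidation had 20 of 21 genes tested, with 0 higher in either derivative, 1 lower in CAL27/5FU and 2 in CAL27/OXA, and medians of 0.05 and -0.15. ETFB, an electron carrier of this oxidation, had 2576, 224 and 1489 counts and ratios of -3.52 and -0.98, and FABP5, a fatty acid binding protein, had -0.91 and -1.20. The other gene lower in CAL27/OXA was CD36, a fatty acid transporter at 19, 20 and 4 counts, named after its values were seen. Of 12 genes of glycerolipid synthesis and lipid droplets, 2 were lower in each derivative, 0 were higher in CAL27/5FU and 1 in CAL27/OXA, with medians of -0.51 and -0.52. LPIN1, a phosphatidate phosphatase, had ratios of -0.97 and -1.64, and HILPDA, a lipid droplet protein, -1.39 and -1.42. The other gene lower in CAL27/5FU was PLIN2, a lipid droplet coat protein at 22, 9 and 16 counts, named after its values were seen. MGLL, which breaks down monoacylglycerols, had 1118, 1200 and 4498 counts and ratios of 0.10 and 1.82.

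**Figure D5:**
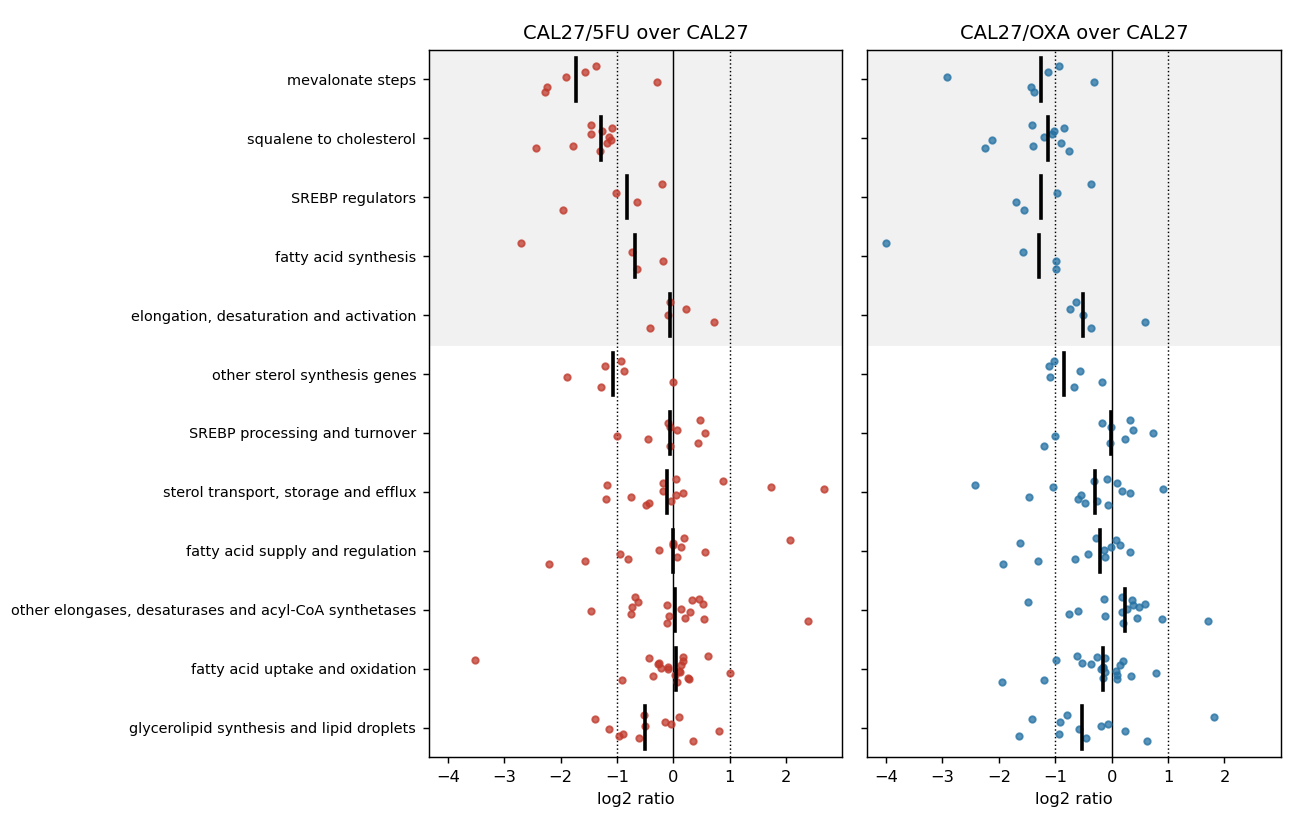
Log2 ratios over CAL27 for the genes of the role lists and the 7 other lists, with 1 point per tested gene and a bar at each list's median, dotted lines at 2-fold and shading behind the role lists of the 29 genes, for CAL27/5FU on the left and CAL27/OXA on the right. The 3 lists of sterol synthesis have medians from -1.73 to -0.85, and the lists of sterol transport and of fatty acid uptake and oxidation from -0.29 to 0.05.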

How the data were processed

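RNA-seq values of 3 libraries were used, 1 each for CAL27, CAL27/5FU and CAL27/OXA. The tables hold a further 3 columns of per-sample values, named as samples numbered 2 of the same lines. No sample label covers them, and none was used. The submitters' processing notes name CASAVA 1.8, HISAT2 2.0.5 and GRCh38. The counting tool, the annotation and the strandedness are not given in the sources used here. The authors deposited raw read counts per gene symbol (19220 genes) and FPKM values (19225 genes), which are scaled to gene length and library size. The 29 genes and all lists were chosen with earlier results of these data known.

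TMM factors were computed over the 3 libraries (edgeR 4.0.16, R 4.3.3), and log2 ratios used a prior count of 2. The 13676 genes that averaged 10 counts or more were tested. A gene past 2-fold was called higher or lower. Intervals are exact (95%, Clopper-Pearson) on the 2 counts compared. They cover counting error only, because 1 library per line gives no spread between cultures. Reads without molecular identifiers are not independent molecules, so the intervals may be too narrow even for counting error. With 1 library per line there was no replicate test. Library totals were 41786182, 37297713 and 43455488 counts, where 1 count stands for 0.0257, 0.0255 and 0.0225 CPM. Levels between genes were compared only as FPKM. The steps were tested on simulated counts with planted changes and counting error only. Such counts hold no spread between cultures, so this test says nothing about that spread in the real libraries. Named were all 29 genes and, from each other list, at most the 5 genes with the largest ratio past 2-fold over CAL27 that averaged 100 counts or more. The marker and overlapping genes are named besides. Gene positions are from GENCODE 29, and promoters are from RefSeq (GRCh38.p14). Alternatives were DESeq2 1.42.0 size factors, total counts, upper-quartile factors, a filter at 1 count in any library or at an average of 50, a prior count of 0.5 or 5, FPKM with a pseudocount of 1 or 0.1 and with a filter at an average FPKM of 1, calls at 1.5-fold, and calls where the whole interval lay past 2-fold. The comparison with genes that averaged 1000 counts or more was added after seeing the data.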

Additional observations from a re-analysis of the deposited data

Results flagged for a closer look

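FADS2, a desaturase of polyunsaturated fatty acids, was the gene of the 29 whose ratios over CAL27 had opposite signs with both counting intervals away from 0, at 0.23 for CAL27/5FU and -0.74 for CAL27/OXA. Its counts were 641 in CAL27 against 758 in CAL27/5FU and 437 in CAL27/OXA. A direct ratio of CAL27/OXA over CAL27/5FU was -0.97 (-1.15 to -0.81). With 1 library per line the difference between the lines was not tested, and the part of reads from the overlapping FADS1 and FEN1 was not tested.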

How the results depend on the processing

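No ratio past 2-fold changed direction under any alternative, and the number of genes past 2-fold lower ran from 13 to 18 of the 29 in CAL27/5FU and from 12 to 15 in CAL27/OXA. The median ratio of the 29 genes was -0.97 in CAL27/5FU and -0.90 in CAL27/OXA with total counts, the same values with FPKM and a pseudocount of 0.1, and -0.94 and -0.87 with FPKM and a pseudocount of 1, with or without a mean FPKM of at least 1. With a threshold of 1.5-fold, 1 gene was higher in CAL27/5FU and 1 in CAL27/OXA, and 21 and 24 were lower in the same order. Of all genes tested, 15.2% and 14.1% were higher at that threshold and 14% and 17% lower. In CAL27/OXA over CAL27/5FU, 2 were higher and 7 lower, beside 10.2% higher and 15.1% lower of all genes tested. With the whole interval past 2-fold, 1 was lower in the last comparison, beside 709 of the 13676 genes tested. The genes that crossed 2-fold under a scale or filter were CYP51A1, TM7SF2, NSDHL, SC5D and SREBF2 in CAL27/5FU, IDI1, HSD17B7 and EBP in CAL27/OXA, and TM7SF2 and FADS2 between the derivatives. The signs of FADS1 and ACSL3 in CAL27/5FU turned with total counts and with FPKM. List medians near 0 also changed sign, for SREBP processing in both derivatives, sterol transport and elongation in CAL27/5FU, and fatty acid supply in both. No paired analysis was possible because 1 library per line was used. Depth limits the ratios little at these counts, while the spread between cultures is not measured.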
